A study of Macaca mulatta with 136 samples.

Results

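Expression of 9 genes of the epidermal growth factor (EGF) family was examined by poly-A RNA-seq in the neural retina and in the retinal pigment epithelium with choroid (RPE/choroid) of the Rhesus macaque. The genes are the ligands EGF, HBEGF, BTC, NRG1 and NRG3 and the receptors EGFR, ERBB2, ERBB3 and ERBB4. They were chosen by name, and all 9 of 9 were found among the 17727 gene symbols of the deposited tables. NRG3 had 2 entries and each of the other genes had 1. The eyes were the left and the right of 2 adult animals, RM03 and RM04, of 13 and 18 years. The sources used here name no treatment and do not say which animal was of which age. From each of the 4 eyes, a punch of 2 mm was taken at the fovea/macula, the perimacula, the temporal periphery and the nasal region and split into both tissues, which gives 8 groups of 4 libraries and 32 libraries in all. Both eyes of an animal share its genotype and history, so 4 eyes stand for 2 animals and the p-values mainly measure the spread between eyes. Each RPE/choroid punch holds the pigment epithelium together with choroidal vessels, nerves, melanocytes and stroma.

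The EGF family signals through 4 related receptor tyrosine kinases that work in pairs. EGF binds EGFR, HBEGF and BTC bind EGFR and ERBB4, NRG1 binds ERBB3 and ERBB4, and NRG3 binds ERBB4. ERBB2 has no known ligand of its own and serves as a partner for the others, and ERBB3 has a weak kinase and depends on a partner. In the nervous system the neuregulins are known for their roles in glia, among them the Schwann cells of peripheral nerves, and EGFR ligands are known growth signals for epithelia and for Müller glia.

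Library totals ran from 42448891 to 78574034 estimated counts. Libraries of the fovea/macula, perimacula and nasal region were sequenced on 5 lanes of 2 shared flow cells and those of the periphery on 2 lanes of 1 other flow cell. Periphery and flow cell therefore cannot be told apart, while comparisons with the perimacula or the nasal region lie within shared flow cells. The tissues carried their own markers: the 9 rod markers summed to between 4007 and 27959 CPM (counts scaled to a common library total with TMM factors) in retina and to between 50.1 and 924 in RPE/choroid, and the 8 RPE markers to between 151 and 1217 in retina and to between 3233 and 19134 in RPE/choroid. In RPE/choroid, the Schwann cell markers found in the files stood apart in 4 libraries, with sums of 12714 CPM (RM03 right eye) and 3449 (RM04 left eye) at the perimacula and of 6831 (RM03 right eye) and 19104 (RM03 left eye) at the periphery, against 492 to 1744 in the other 12. The periphery library of the RM03 left eye also had the lowest RPE marker sum of its tissue, 3233 CPM. Later comparisons without these 4 libraries leave peripheral RPE/choroid with the RM04 eyes alone. Schwann cell markers and animal cannot be told apart there.

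Between fovea/macula and periphery, 7 of the 9 genes differed in retina, where 67% of all genes tested were called, and 4 of 9 in RPE/choroid, where 44.1% were called (edgeR quasi-likelihood test, adjusted p under 0.05). In retina, EGF, NRG3 and ERBB4 were higher at the fovea/macula and HBEGF, NRG1, ERBB2 and ERBB3 at the periphery. In RPE/choroid, HBEGF and EGFR were higher at the fovea/macula and EGF and ERBB3 at the periphery. EGF and HBEGF therefore changed in opposite directions in the 2 tissues. Against the nasal region, 6 of 9 genes differed in retina (52.2% of all genes called) and 0 of 9 in RPE/choroid (0.361%), and against the perimacula 3 of 9 in retina (35.2%) and 0 of 9 in RPE/choroid (0.0447%). The share of members called in retina was close to that of all genes in each comparison, and the size of the changes was larger only for the periphery and the nasal region: the median absolute log2 fold change was 1.34 over the 9 genes and 0.58 over all genes for the periphery, 0.59 and 0.36 for the nasal region, and 0.29 and 0.29 for the perimacula. The study had itself named ErbB signalling, and listed EGF, HBEGF, NRG1, EGFR, ERBB3 and ERBB4 in ligand and receptor pairs, from the same libraries. The directions of these genes are therefore not independent evidence, and some differ from those listed by the study, as given below. At an unadjusted edgeR p under 0.05 in RPE/choroid, EGF and HBEGF passed against the nasal region, beside 2449 of all 15789 genes tested. EGFR passed against the perimacula, beside 1678 of 15674. DESeq2 called 2 and 0 of the 9 genes, and for the nasal region 490 of all 15789.

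**Figure D1:**
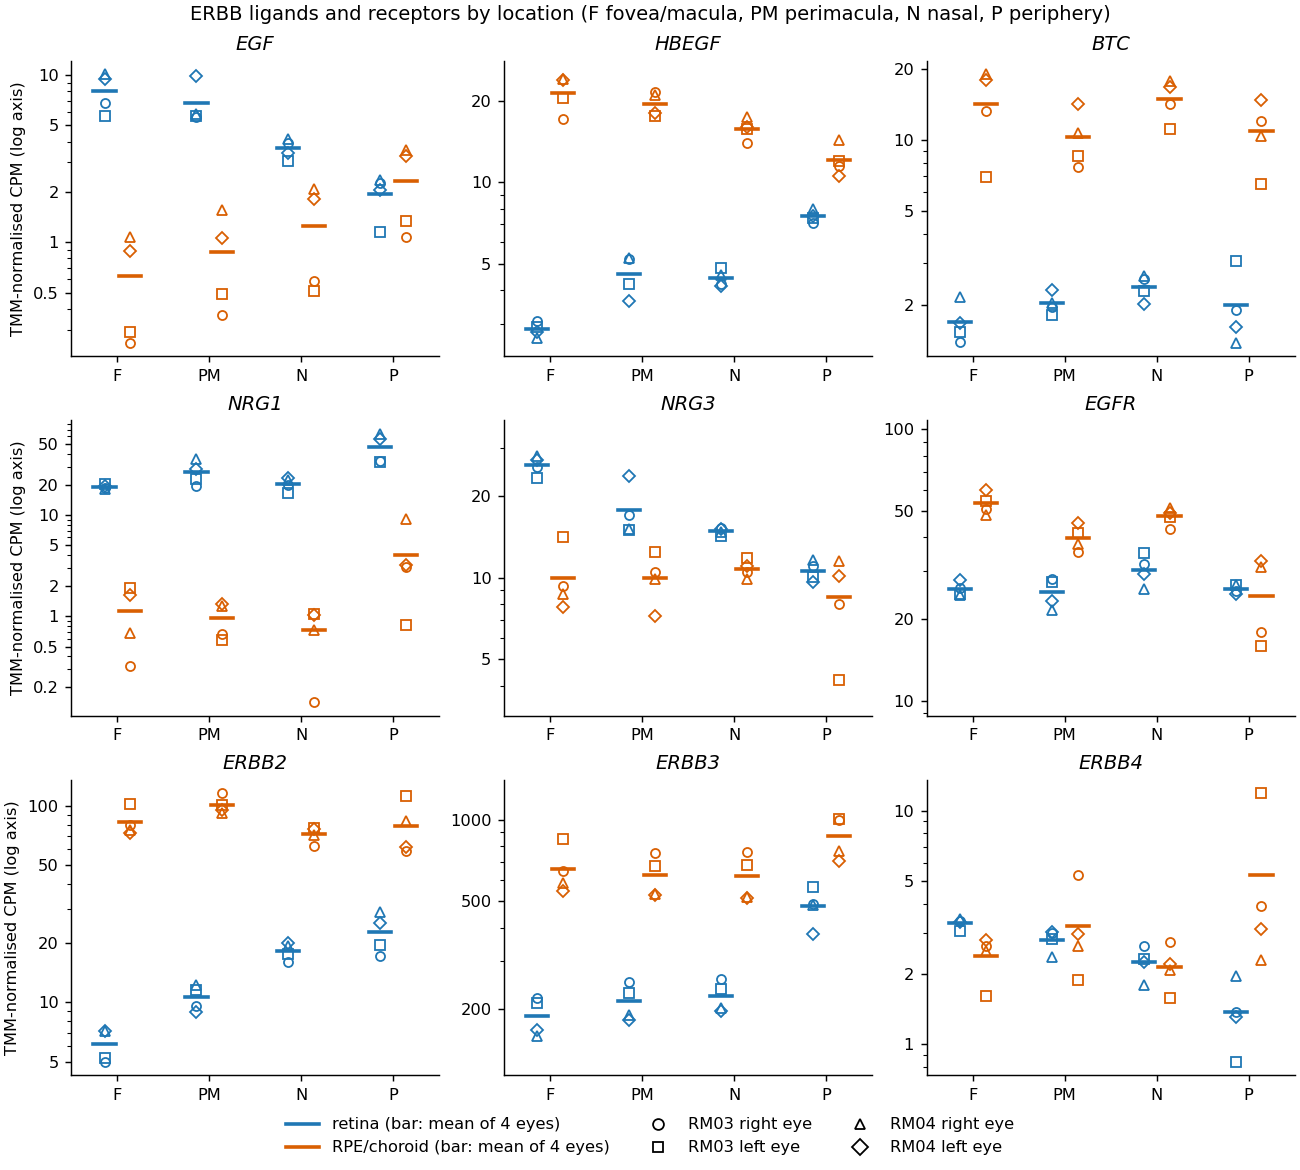
Levels of the 9 genes (CPM on log axes) in retina (blue) and RPE/choroid (orange) at the fovea/macula (F), perimacula (PM), nasal region (N) and periphery (P). Each symbol is 1 eye and each bar the mean of 4 eyes. EGF falls from F to P in retina and is highest at P in RPE/choroid, HBEGF runs the other way, and ERBB2 in retina increases in mean from 6.12 to 22.7 CPM.

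In the values that follow, eyes are given in the order RM03 right, RM03 left, RM04 right and RM04 left, levels are in CPM, and fold changes are log2 values of the edgeR fit with their standard errors. EGF (ENSMMUG00000010043), the founding ligand of the family, was at 6.78, 5.68, 10.1 and 9.49 CPM in the 4 retinas at the fovea/macula. The same eyes had 2.26, 1.15, 2.35 and 2.04 CPM at the periphery, so the groups did not overlap and every eye was higher at the fovea/macula. The log2 fold change was 2.07 ± 0.21 (edgeR adjusted p = 4.46e-06). Between these, the perimacula had 6.77 ± 2.08 CPM (SD, n = 4) and the nasal region 3.64 ± 0.48, and the fovea/macula exceeded the nasal region by 1.14 ± 0.20 (edgeR adjusted p = 2.67e-04) but was not separated from the perimacula (0.28 ± 0.20, edgeR adjusted p = 0.318). The perimacular library of the RM04 left eye, with 9.88 CPM, lay apart from the other 3 at 5.64 to 5.85. That library also had the highest ganglion cell marker sum of the perimacular retinas, 4819 CPM against 2212 to 3237. Its cone marker sum was the highest too, 2538 against 1464 to 1934, and its rod marker sum the lowest, 10646 against 14495 to 16564.

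In RPE/choroid, EGF had 0.251, 0.290, 1.08 and 0.885 CPM at the fovea/macula. The peripheral RPE/choroid had 1.08, 1.35, 3.54 and 3.28 CPM. Each eye was higher at the periphery, by 3.93 times in the fit, although the ranges of the 2 groups met at 1.08 CPM. The log2 fold change was -1.97 ± 0.25 (edgeR adjusted p = 1.39e-04) and it was -1.82 ± 0.33 without the 4 libraries high in Schwann cell markers (edgeR adjusted p = 0.00556). At all 4 locations both RM04 eyes exceeded both RM03 eyes, with medians over the locations of 1.68 CPM in RM04 and 0.5004 in RM03. The nasal region, at 1.25 ± 0.816 CPM, was higher than the fovea/macula in 4 of 4 eyes (-0.998 ± 0.23, edgeR adjusted p = 0.0817). Rod marker sums were 51.1 to 538 CPM (median 96.2) in foveal and 126 to 924 CPM (median 452) in peripheral RPE/choroid. In peripheral retina they were 23904 to 27959 CPM. EGF in that retina, at 1.95 ± 0.55 CPM, was not separated from the 2.31 ± 1.28 CPM of peripheral RPE/choroid (-0.06 ± 0.30, edgeR adjusted p = 0.866). Whether retinal tissue in the RPE/choroid samples had a part in their EGF values was not tested.

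HBEGF (ENSMMUG00000003280), the heparin-binding ligand of EGFR and ERBB4, was at 3.07, 2.93, 2.66 and 2.81 CPM in retina at the fovea/macula. It was at 7.09, 7.38, 8.002 and 7.53 CPM at the periphery, so that all 4 peripheral retinas lay above all foveal ones by a wide margin. The log2 fold change was -1.34 ± 0.14 (edgeR adjusted p = 3.65e-06). Perimacula (4.58 ± 0.792 CPM) and nasal region (4.44 ± 0.308) lay between and overlapped each other, and both exceeded the fovea/macula, by log2 values of -0.62 ± 0.14 and -0.59 ± 0.12 (edgeR adjusted p = 0.0042 and 0.00102). In RPE/choroid the order was turned around. HBEGF had 17.1, 20.4, 24.05 and 23.8 CPM at the fovea/macula, against 11.5, 11.99, 14.3 and 10.6 at the periphery, with no overlap (0.80 ± 0.13, edgeR adjusted p = 5.25e-04). The nasal region, at 15.8 ± 1.43 CPM, was lower than the fovea/macula in 4 of 4 eyes without passing the test (0.43 ± 0.12, edgeR adjusted p = 0.118). Fewer cells of a type and less RNA per cell cannot be told apart in these bulk punches, for this and every other gene.

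BTC (ENSMMUG00000047642), betacellulin, was the ligand with no called location change. From the fovea/macula over the perimacula and the nasal region to the periphery, its retinal means were 1.69 ± 0.327, 2.03 ± 0.208, 2.38 ± 0.297 and 1.99 ± 0.748 CPM, and neighbours in that order overlapped. In RPE/choroid the means were 14.3 ± 5.47, 10.3 ± 2.94, 14.96 ± 2.96 and 10.9 ± 3.46 CPM. The foveal values there were 13.2, 6.97, 18.96 and 17.95 CPM, and the RM03 left eye was the lowest at 3 of the 4 locations. Fovea/macula over periphery gave -0.17 ± 0.25 in retina and 0.33 ± 0.25 in RPE/choroid (edgeR adjusted p = 0.559 and 0.30).

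NRG1 (ENSMMUG00000000208), the neuregulin that binds ERBB3 and ERBB4, had 18.5, 20.5, 18.04 and 19.6 CPM in foveal retina and 34.2, 33.7, 63.4 and 56.7 in peripheral retina. The groups did not overlap, and the RM04 eyes were the higher ones at the periphery. The log2 fold change was -1.18 ± 0.16 (edgeR adjusted p = 4.47e-05). The nasal retina, at 20.4 ± 2.92 CPM, showed no such rise (-0.03 ± 0.16, edgeR adjusted p = 0.893), and the perimacula, at 26.5 ± 7.19, was higher than the fovea/macula in 4 of 4 eyes (-0.36 ± 0.16, edgeR adjusted p = 0.0992). Within the shared flow cells NRG1 therefore had no called change. In RPE/choroid NRG1 was low and uneven, down to 6 counts in a library: it had 0.322, 1.92, 0.682 and 1.63 CPM at the fovea/macula, against 3.07, 0.819, 9.03 and 3.21 at the periphery (-1.61 ± 0.64, edgeR adjusted p = 0.0619). With 1 eye left out, this change ran from -2.66 without the RM03 left eye (edgeR adjusted p = 0.00473) to -0.88 without the RM04 right eye (edgeR adjusted p = 0.349). It was -2.22 without the 4 libraries high in Schwann cell markers (edgeR adjusted p = 0.0732), and DESeq2 called it with all eyes (adjusted p = 0.0219).

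NRG3 (ENSMMUG00000017380), a neuregulin of neurons that binds ERBB4, had 25.6, 23.2, 28.01 and 27.3 CPM in foveal retina. It fell to 11.1, 10.0, 11.6 and 9.64 CPM in peripheral retina, again with no overlap (1.35 ± 0.14, edgeR adjusted p = 4.21e-06). NRG3 was also higher at the fovea/macula than at the perimacula, which had 17.7 ± 4.08 CPM, and than at the nasal region, which had 14.8 ± 0.421. These changes were 0.61 ± 0.14 and 0.85 ± 0.12 (edgeR adjusted p = 0.00491 and 2.78e-05). In RPE/choroid it stayed between 4.21 and 14.1 CPM, and the fovea/macula and periphery gave 0.22 ± 0.31 (edgeR adjusted p = 0.601). A further entry named NRG3 (ENSMMUG00000048252) is uncertain, since reads of 1 gene may be split between entries of the same name, and it is left out of the counts of members. It had 1.60 ± 0.277 CPM in foveal and 0.502 ± 0.188 in peripheral retina (1.72 ± 0.30, edgeR adjusted p = 3.23e-04).

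**Figure D2:**
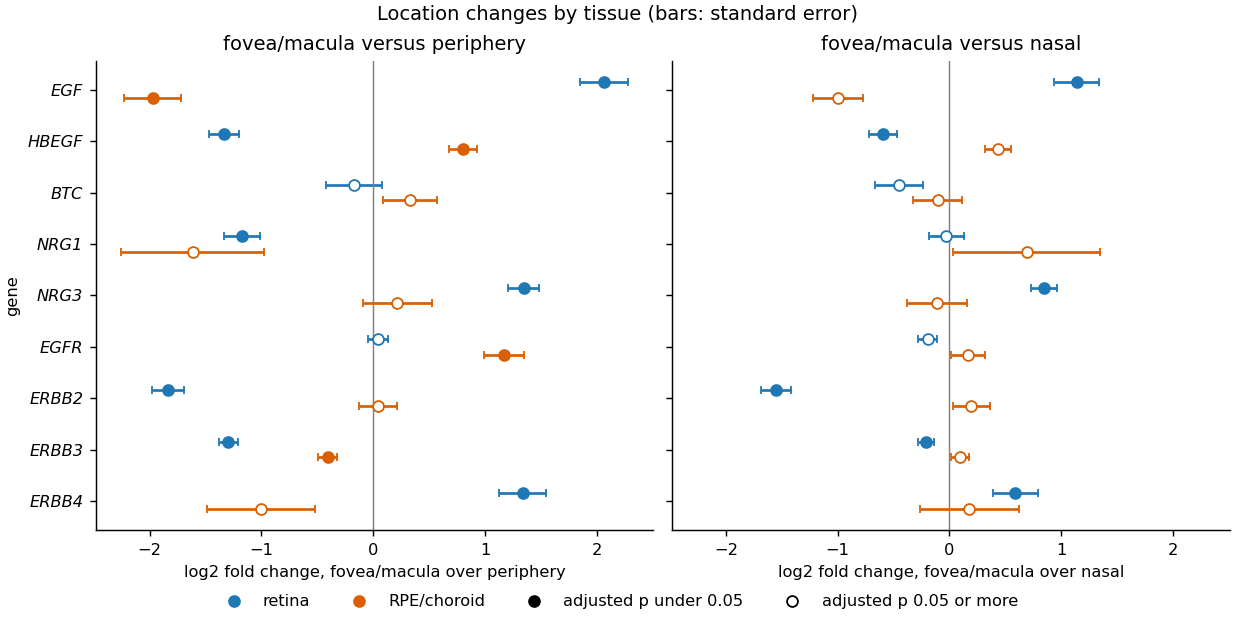
Log2 fold changes of the 9 genes for fovea/macula over periphery (left) and over the nasal region (right), in retina (blue) and RPE/choroid (orange). Points are edgeR estimates, bars are standard errors and filled points have an adjusted p under 0.05. EGF and HBEGF lie on opposite sides of 0 in the 2 tissues, EGFR is near 0 in retina and at 1.17 in RPE/choroid for the periphery, and ERBB2 is near 0 in RPE/choroid and at -1.84 in retina.

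EGFR (ENSMMUG00000022394), the receptor of EGF, HBEGF and BTC, was even across the retina. It had 26.1, 24.7, 24.6 and 27.9 CPM at the fovea/macula, against 25.3, 26.7, 26.8 and 24.8 at the periphery. The difference was 0.05 ± 0.09 (edgeR adjusted p = 0.673), and the nasal retina, the highest at 30.4 ± 3.91 CPM, differed from the fovea/macula by -0.19 ± 0.09 (edgeR adjusted p = 0.0713). In RPE/choroid the same gene had 50.7, 54.5, 48.4 and 59.8 CPM at the fovea/macula, against 17.9, 15.9, 31.1 and 32.8 at the periphery. All 4 foveal samples lay above all peripheral ones, and the 2 peripheral samples of RM03 were lower than those of RM04. The log2 fold change was 1.17 ± 0.18 (edgeR adjusted p = 4.17e-04). Both peripheral RM03 samples belong to the libraries high in Schwann cell markers, and without those 4 libraries the change was 0.73 ± 0.12 (edgeR adjusted p = 0.0041). The perimacula had 39.9 ± 4.28 CPM, lower than the fovea/macula in 4 of 4 eyes (0.43 ± 0.18, edgeR adjusted p = 0.409), and the nasal region 47.8 ± 3.65 (0.17 ± 0.16, edgeR adjusted p = 0.661).

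ERBB2 (ENSMMUG00000001348), the receptor without a ligand of its own, rose stepwise across the retina. It had 4.996, 5.19, 7.11 and 7.16 CPM at the fovea/macula, and 9.60, 11.5, 12.3 and 8.96 at the perimacula. At the nasal region it had 16.1, 17.7, 19.3 and 19.96 CPM, and at the periphery 17.2, 19.5, 28.9 and 25.3. Only the last 2 of these 4 groups overlapped. Against the fovea/macula, the log2 fold changes were -0.76 ± 0.14 for the perimacula, -1.55 ± 0.13 for the nasal region and -1.84 ± 0.14 for the periphery (edgeR adjusted p = 0.00174, 5.06e-07 and 5.26e-07). In RPE/choroid ERBB2 had means of 82.4 ± 13.3, 101 ± 10.8, 71.5 ± 6.70 and 79.3 ± 24.96 CPM at the fovea/macula, perimacula, nasal region and periphery, and none of the changes passed (for the periphery 0.05 ± 0.17, edgeR adjusted p = 0.851).

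ERBB4 (ENSMMUG00000001674), the receptor shared by the neuregulins, HBEGF and BTC, had 3.38, 3.07, 3.45 and 3.34 CPM in foveal retina and 1.37, 0.842, 1.96 and 1.30 in peripheral retina. All 4 foveal retinas were higher (1.34 ± 0.21, edgeR adjusted p = 1.17e-04). Nasal retina had 2.25 ± 0.356 CPM, lower in 4 of 4 eyes (0.59 ± 0.20, edgeR adjusted p = 0.0239), a call that was lost without the RM04 right eye (0.48, edgeR adjusted p = 0.0636) or the RM04 left eye (0.59, edgeR adjusted p = 0.101). In RPE/choroid ERBB4 had 2.63, 1.60, 2.51 and 2.79 CPM at the fovea/macula, against 3.92, 11.9, 2.29 and 3.13 at the periphery. A single library, of the RM03 left eye, stood far above the rest. The change was -1.001 ± 0.48 (edgeR adjusted p = 0.116), and without the 4 libraries high in Schwann cell markers it was -0.01 ± 0.33 (edgeR adjusted p = 0.986). The highest ERBB4 values of the tissue, 11.9, 5.31 and 3.92 CPM, were in the 3 libraries with the highest Schwann cell marker sums, 19104, 12714 and 6831 CPM.

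**Figure D3:**
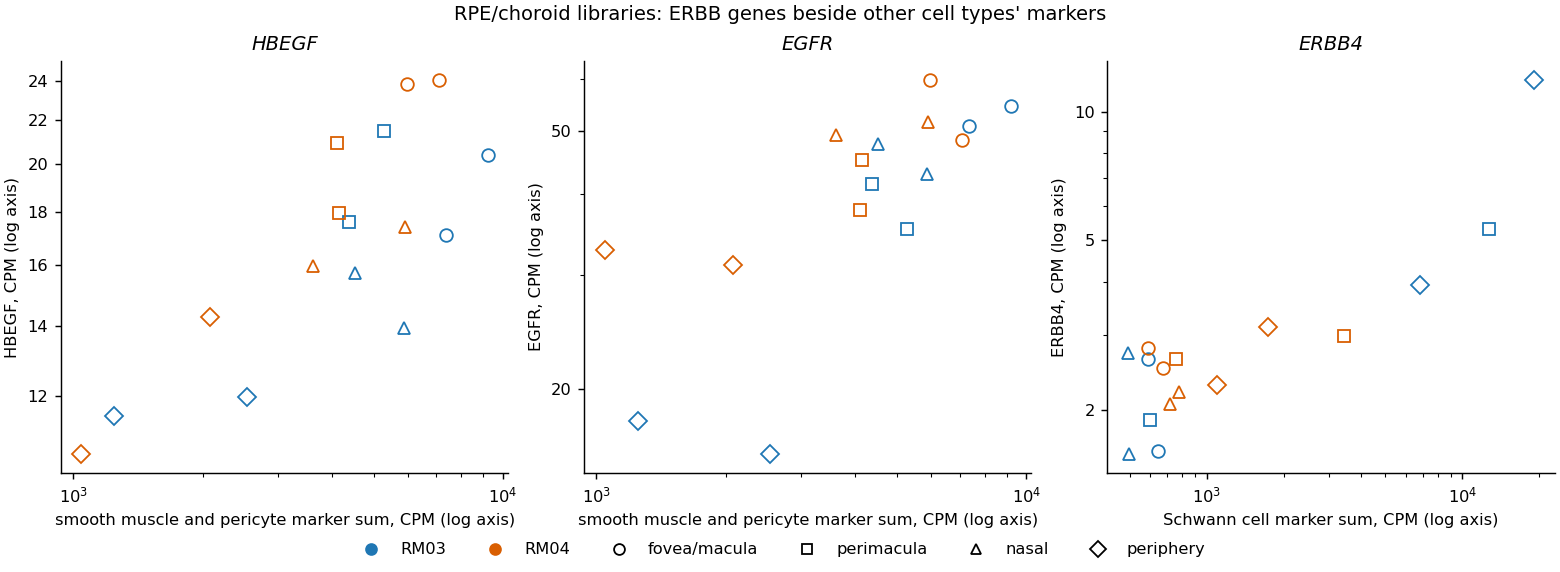
HBEGF and EGFR against the summed smooth muscle and pericyte markers, and ERBB4 against the summed Schwann cell markers, in the 16 RPE/choroid libraries (CPM, log axes). Each symbol is 1 library, with shape for location and colour for animal. The 4 peripheral libraries have the lowest smooth muscle sums, 1045 to 2535 CPM, and the highest ERBB4 value, 11.9 CPM, is in the library with the highest Schwann cell sum.

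Markers of other cell types moved with several of these genes, and their part in the results was not tested. For fovea/macula against periphery, their counts are to be read against the 67% of all genes called in retina and 44.1% in RPE/choroid. In retina, the 8 ganglion cell markers fell together from fovea/macula to periphery, 8 of 8 called, beside the falls of EGF, NRG3 and ERBB4. Their sums were 7845 to 8836 CPM in the former and 374 to 812 in the latter. Cone markers fell beside the same genes, with 6 of 7 called foveal-high and 0 peripheral-high. The cone sums were 2353 to 3061 CPM at the fovea/macula, against 1677 to 1773 at the periphery. The 8 Müller glia markers rose, 8 of 8 called, with sums of 1973 to 2204 CPM at the fovea/macula, against 5531 to 7604 at the periphery. The 9 rod markers rose too, 9 of 9 called, beside HBEGF, NRG1 and ERBB2. Of the 4 astrocyte markers, 0 were called foveal-high and 3 peripheral-high. Against the nasal region, 9 of 9 rod and 7 of 8 Müller glia markers were called lower in foveal retina (52.2% of all genes called). NRG1 was not called there (-0.03 ± 0.16, edgeR adjusted p = 0.893), while HBEGF and ERBB2 were. The 8 RPE markers also moved in retina between fovea/macula and periphery, with 6 called peripheral-high and 1 foveal-high (median -1.30). They stood beside HBEGF, ERBB2, ERBB3 and TIMP3, which were higher in RPE/choroid than in retina. The RPE marker sums were 184 to 271 CPM in foveal, 257 to 455 in nasal and 562 to 1217 in peripheral retina. In RPE/choroid, the 7 smooth muscle and pericyte markers were lower at the periphery, 6 of 7 called, with sums of 5976 to 9218 CPM at the fovea/macula, against 1045 to 2535 at the periphery, and 7 of the 8 endothelial markers were called lower, beside HBEGF and EGFR. DES, a muscle filament gene of that marker list, was among the 3 genes most like HBEGF in this tissue. The 6 fibroblast markers summed to 2610 to 3413 CPM in foveal samples and to 4690 to 9656 in peripheral ones, 3 of 6 called higher there, beside EGF and ERBB3. Beside the same 2 genes, 6 of the 8 Müller glia markers were called peripheral-high in RPE/choroid (median -1.06). Their sums overlapped, with 4978 to 7046 CPM in foveal samples and 4285 to 7234 in peripheral ones. The foveal sums lay above the 1973 to 2204 CPM of foveal retina. Between the tissues there, 4 of the 8 were called higher in retina and 3 in RPE/choroid. In RPE/choroid this list therefore does not single out Müller glia. The melanocyte markers summed to 5458 to 7311 CPM in foveal and 9274 to 11341 in peripheral samples, and of the 4 tested 1 was called foveal-high and 2 peripheral-high. Of the 12 Schwann cell markers tested, 1 was called foveal-high and 5 peripheral-high. Of the 8 RPE markers, 0 were called between these locations in RPE/choroid (median log2 fold change 0.21).

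ERBB3 (ENSMMUG00000020758), the receptor of NRG1 with a weak kinase, had 219, 210.0, 159 and 167 CPM in foveal retina and 490.2, 564, 483 and 380.3 in peripheral retina. All peripheral retinas were higher (-1.30 ± 0.09, edgeR adjusted p = 1.85e-07). The perimacula, at 214 ± 32.8 CPM, did not pass (-0.12 ± 0.08, edgeR adjusted p = 0.28), and the nasal region, at 224 ± 29.5, was higher than the fovea/macula by a small amount in 4 of 4 eyes (-0.21 ± 0.07, edgeR adjusted p = 0.029). That nasal call was lost without any 1 of the 4 eyes, with changes of -0.23 to -0.17 and edgeR adjusted p up to 0.161. Most of the retinal rise thus sat in the periphery libraries of the separate flow cell. In RPE/choroid ERBB3 had 645, 847, 585 and 548 CPM at the fovea/macula, against 995, 1009.6, 764 and 702 at the periphery. Every eye was higher at the periphery though the ranges of the groups overlapped (-0.41 ± 0.09, edgeR adjusted p = 0.00284). Without the 4 libraries high in Schwann cell markers the change was -0.36 (edgeR adjusted p = 0.0646). The call was also lost without the monkey as covariate (-0.41, edgeR adjusted p = 0.0886). Both RM03 eyes exceeded both RM04 eyes at all 4 locations in each tissue.

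The ERBB3 values need to be read beside those of ribosomal protein genes, a comparison that was chosen after the values were seen. The 3 retinal genes most like ERBB3 were RPL35A, RPS3A and RPS25, with Pearson correlations of log2 CPM of 0.995, 0.992 and 0.991 over 16 libraries that share location, flow cell and animal. Among the 50 entries most like ERBB3 in retina, 14 were ribosomal protein genes, which made up 0.653% of all entries compared. In retina 72 of the 72 ribosomal protein genes tested were called higher at the periphery, with a median log2 fold change of -1.43, close to that of ERBB3. In RPE/choroid 61 of 73 were, with a median of -0.67. Of all genes, 67% in retina and 44.1% in RPE/choroid were called, in either direction. In RPE/choroid 3 of the 50 entries most like ERBB3 were ribosomal protein genes, which made up 0.667% of all entries compared. The ribosomal protein gene RPS26 is the neighbour of ERBB3 in the RefSeq annotation of the macaque (a newer assembly than that of the files), with 0 genes between them. In the deposited tables the 3 entries named RPS26 summed to at most 1.61 CPM in any library, whereas 69 of the other 78 ribosomal protein genes had a median above 10 CPM and the median over the 78 was 202 CPM. Ranked from the lowest median, RPS26 was number 6 among these genes. Whether reads of RPS26 were counted in the ERBB3 entry was not tested, since the transcript models used for counting are not analysed here. Counts of called members that include ERBB3 carry this limit.

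**Figure D4:**
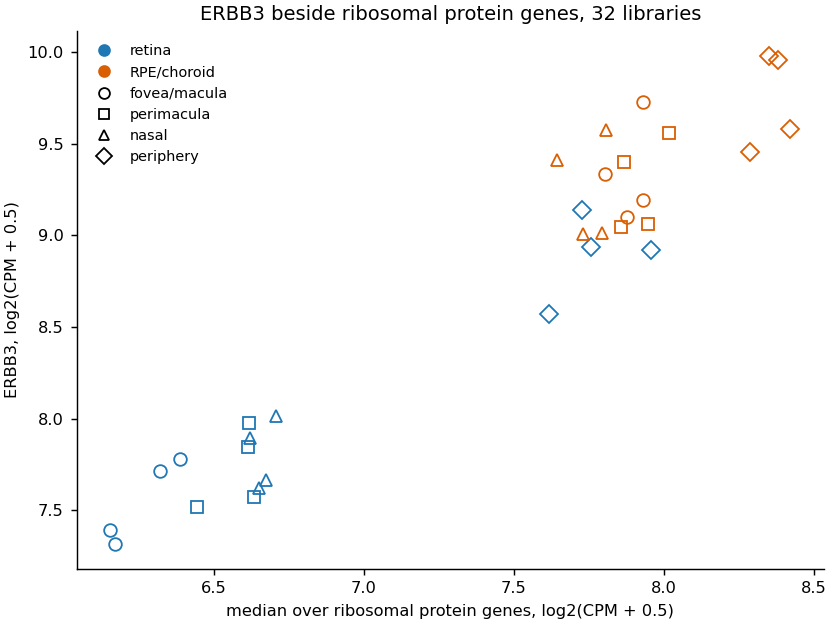
ERBB3 against the median of 78 ribosomal protein genes other than RPS26 in the 32 libraries, both as log2(CPM + 0.5), with colour for tissue and shape for location. ERBB3 rises with the ribosomal median in retina and more loosely in RPE/choroid, and the peripheral libraries have the highest ribosomal medians of their tissue. Pearson's r was 0.956 over the 16 retinas and 0.654 over the 16 RPE/choroid libraries.

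The tissues themselves differed in most of the 9 genes at every location. At the fovea/macula 8 of 9 were called, where 74.6% of all genes were. EGF, NRG1 and NRG3 were higher in retina, by 3.88 ± 0.34, 4.16 ± 0.50 and 1.42 ± 0.25 (edgeR adjusted p = 2.32e-09, 2.36e-07 and 3.16e-05). HBEGF, BTC, EGFR, ERBB2 and ERBB3 were higher in RPE/choroid, with differences of -2.85 ± 0.14, -3.02 ± 0.31, -1.01 ± 0.17, -3.71 ± 0.21 and -1.76 ± 0.09 (edgeR adjusted p of 2.18e-05 or less). The neuregulins thus stood on the retinal side, and 3 of the 4 receptors on the RPE/choroid side. ERBB4 was not called (0.50 ± 0.40, edgeR adjusted p = 0.257), although it was higher in retina in 4 of 4 eyes. It was called without the 4 libraries high in Schwann cell markers, none of which is foveal (0.52, edgeR adjusted p = 0.046).

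At the perimacula 8 of 9 genes were called (75.6% of all genes), in the same directions as at the fovea/macula, and at the nasal region 7 of 9 (76.2%), where NRG3 did not pass (0.45 ± 0.22, edgeR adjusted p = 0.0595). NRG3 passed there without the 4 libraries high in Schwann cell markers, none of which is nasal (0.46, edgeR adjusted p = 0.00838). The perimacular NRG3 difference of 0.84 ± 0.24 (edgeR adjusted p = 0.00428) was lost without the RM04 left eye (0.60, edgeR adjusted p = 0.0657). At the periphery 6 of 9 were called (74.3%). NRG1 remained 3.62 ± 0.47 higher in retina (edgeR adjusted p = 7.85e-07). HBEGF, BTC, ERBB2, ERBB3 and ERBB4 were higher in RPE/choroid, HBEGF by only -0.69 ± 0.13 (edgeR adjusted p = 1.04e-04) and ERBB4 by -1.88 ± 0.41 (edgeR adjusted p = 3.69e-04). EGF, NRG3 and EGFR did not pass there. The ERBB4 difference was -0.89 without the 4 libraries high in Schwann cell markers (edgeR adjusted p = 0.0087) and -0.99 without the RM03 left eye (edgeR adjusted p of 0.00462 or less without any 1 eye). For EGFR, leaving out the same 4 libraries turned the direction, from 0.10 ± 0.17 (edgeR adjusted p = 0.591) to -0.34 (edgeR adjusted p = 0.0119). Peripheral RPE/choroid then held RM04 alone, whose EGFR levels there, 31.1 and 32.8 CPM, exceeded the 17.9 and 15.9 CPM of RM03.

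Whether a location change differed between the tissues was tested directly, as the retinal change minus that in RPE/choroid. For the periphery 7 of 9 genes were called, where 40.2% of all genes were. EGF differed by 3.94 ± 0.45, HBEGF by -2.17 ± 0.19, ERBB4 by 2.38 ± 0.57, ERBB2 by -1.91 ± 0.27, EGFR by -1.11 ± 0.24, NRG3 by 1.09 ± 0.35 and ERBB3 by -0.91 ± 0.12 (edgeR adjusted p from 8.57e-08 to 0.0161). Without the 4 libraries high in Schwann cell markers, ERBB4 differed by 1.41 ± 0.36 and EGFR by -0.66 ± 0.15 (edgeR adjusted p = 0.00547 and 0.00208). Without the RM03 left eye, ERBB4 differed by 1.43 (edgeR adjusted p of 0.0171 or less without any 1 eye). BTC and NRG1 did not pass (-0.61 ± 0.41 and 0.55 ± 0.63, edgeR adjusted p = 0.255 and 0.525). NRG3 lost its call without the RM03 right eye or either RM04 eye (edgeR adjusted p of 0.0915 to 0.145).

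For the nasal region, where all libraries share flow cells, 5 of 9 were called against 23.5% of all genes. These were EGF (2.04 ± 0.46, edgeR adjusted p = 0.00178), HBEGF (-1.06 ± 0.17, edgeR adjusted p = 7.07e-05), ERBB2 (-1.79 ± 0.26, edgeR adjusted p = 1.53e-05), NRG3 (0.92 ± 0.30, edgeR adjusted p = 0.0283) and ERBB3 (-0.34 ± 0.11, edgeR adjusted p = 0.0297). Of the changes within each tissue, those of EGF and HBEGF over the nasal region were called in retina and not in RPE/choroid. With 1 eye left out, 3 or 4 of the 9 were called. NRG3 lost its call without the RM03 right eye or either RM04 eye (edgeR adjusted p of 0.106 to 0.154). ERBB3 lost its call without the RM03 left eye or either RM04 eye (edgeR adjusted p of 0.203 to 0.32), without the monkey as covariate (edgeR adjusted p = 0.41), with 2 lanes per library (edgeR adjusted p = 0.0681) and without the 4 libraries high in Schwann cell markers (-0.30, edgeR adjusted p = 0.0569). Without those 4, EGFR passed (-0.36, edgeR adjusted p = 0.0469, against -0.40 ± 0.22 and 0.204 with all libraries).

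The study compared ligands and receptors across the tissue border, and 8 ligand and receptor pairs of the 9 genes were read in the same way, with each partner in each tissue, for fovea/macula against periphery. The comparisons share libraries and the pairs share genes, so each partner's own change is what carries the information. Both partners were higher at the fovea/macula for EGF in retina (2.07) with EGFR in RPE/choroid (1.17), for HBEGF and EGFR both in RPE/choroid (0.80 and 1.17), for HBEGF in RPE/choroid (0.80) with ERBB4 in retina (1.34), and for NRG3 and ERBB4 both in retina (1.35 and 1.34). NRG1 in retina (-1.18) was higher at the periphery together with ERBB3 in retina (-1.30) and in RPE/choroid (-0.41), within the limit on ERBB3 given above. Opposite directions were found for EGF with EGFR within RPE/choroid (-1.97 and 1.17), for HBEGF in retina (-1.34) with EGFR in RPE/choroid (1.17) or ERBB4 in retina (1.34), and for NRG1 with ERBB4 within retina (-1.18 and 1.34). In the other 22 of the 32 combinations at least 1 partner was not called. The study lists EGF in retina with EGFR in RPE/choroid as higher in the macula too. It lists NRG1 in retina with ERBB3 in RPE/choroid as lower. HBEGF in retina with ERBB4 in RPE/choroid is listed as higher, whereas retinal HBEGF was lower here (-1.34) and that ERBB4 was not called. NRG1 or the ligand EREG in RPE/choroid with ERBB4 in retina are listed as lower, whereas retinal ERBB4 was higher here (1.34). In RPE/choroid, EREG was called higher at the fovea/macula here, as given below, and NRG1 was not called (edgeR adjusted p = 0.0619). The study tested with DESeq2 and another adjustment of p-values, and also aligned reads to the human genome. The reason for the differences was not tested.

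Other genes of the pathway were read from lists of remaining ligands, sheddases with their regulators, adaptors and effectors, feedback and turnover regulators, and membrane partners. Their counts are to be read against the 67% of all genes called in retina and 44.1% in RPE/choroid for the same comparison, either direction. Of 5 other ligands tested, NRG2 was higher in foveal retina (17.8 ± 1.31 against 12.6 ± 1.71 CPM, 0.55 ± 0.09, edgeR adjusted p = 1.30e-04) and TGFA in peripheral retina (5.25 ± 1.14 against 7.45 ± 1.51 CPM, -0.46 ± 0.11, edgeR adjusted p = 0.00305, and 0.0964 without the monkey as covariate). In RPE/choroid EREG alone of the 5 was called, higher at the fovea/macula (1.43 ± 0.232 against 0.704 ± 0.196 CPM, 0.99 ± 0.29, edgeR adjusted p = 0.0185), a call lost without the RM03 left or either RM04 eye (edgeR adjusted p of 0.0687 to 0.0743).

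Sheddases cut membrane-bound ligands free. Of the 9 sheddase list genes, 0 were called foveal-high and 4 peripheral-high in retina (median -0.26, all genes -0.06), and 5 and 0 in RPE/choroid (median 0.40, all genes -0.06), where 67% and 44.1% of all genes were called. TIMP3, an inhibitor of sheddases that is abundant in RPE/choroid, had 125 ± 13.3 CPM in foveal and 334 ± 72.6 in peripheral retina (-1.37 ± 0.15, edgeR adjusted p = 6.02e-06). It ran the other way in RPE/choroid, with 4967 ± 680.2 CPM at the fovea/macula, against 2387 ± 654 at the periphery (1.04 ± 0.19, edgeR adjusted p = 0.00139). RHBDF1, an inactive rhomboid protein that helps ADAM17 mature, was higher in peripheral retina (-1.40 ± 0.23, edgeR adjusted p = 2.15e-04), and the rhomboid protease gene RHBDL2 in foveal RPE/choroid (1.39 ± 0.32, edgeR adjusted p = 0.00471).

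Among 30 entries of 29 adaptors and effectors, 15 were called foveal-high and 8 peripheral-high in retina (median 0.23), and 15 and 5 in RPE/choroid (median 0.27), beside the 67% and 44.1% of all genes called. SOS1, the exchange factor that activates RAS, had 87.8 ± 2.05 CPM in foveal and 41.6 ± 4.41 in peripheral RPE/choroid (1.07 ± 0.09, edgeR adjusted p = 7.79e-06). The adaptor CRK was higher at the periphery in both tissues (-0.58 ± 0.07 and -0.69 ± 0.06, edgeR adjusted p = 1.97e-05 and 1.78e-05), as was the ERK kinase gene MAP2K2 in retina (-0.70 ± 0.11, edgeR adjusted p = 9.22e-05) and MAP2K1 in RPE/choroid (-1.29 ± 0.25, edgeR adjusted p = 0.00181). Without the 4 libraries high in Schwann cell markers, the change of MAP2K1 was -0.74 (edgeR adjusted p = 0.00714). PIK3R3 and PTPN11, which the naming rule also selects, have several entries each and are uncertain. An entry of PIK3R3 was higher in foveal retina at under 1 CPM (1.70 ± 0.56, edgeR adjusted p = 0.0172, and 0.0659 without the RM03 right eye), and an entry of PTPN11 was higher in foveal RPE/choroid (0.80 ± 0.09, edgeR adjusted p = 7.47e-05).

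The feedback and turnover regulators, which dampen the signal or mark proteins for removal, numbered 20 entries of 19 genes, with 7 called foveal-high and 9 peripheral-high in retina (median -0.06) and 6 and 3 in RPE/choroid (median 0.12), again beside 67% and 44.1% of all genes. DUSP6, a phosphatase of ERK, was the largest change of the list in RPE/choroid, with 476 ± 140.3 CPM at the fovea/macula, against 95.9 ± 39.7 at the periphery (2.32 ± 0.25, edgeR adjusted p = 4.93e-05). It was also higher in foveal retina, with 43.9 ± 11.9 against 14.3 ± 6.61 CPM (1.68 ± 0.20, edgeR adjusted p = 1.34e-05), as was DUSP4 (1.81 ± 0.28, edgeR adjusted p = 1.14e-04). SPRY4 was higher in foveal RPE/choroid (1.16 ± 0.10, edgeR adjusted p = 1.15e-05), and SPRED1 in peripheral RPE/choroid (-0.42 ± 0.08, edgeR adjusted p = 0.00244). LRIG3 was higher in peripheral retina (-0.86 ± 0.11, edgeR adjusted p = 3.63e-05). STUB1, with 2 entries and uncertain, had an entry higher at the periphery in retina (-1.34 ± 0.19) and in RPE/choroid (-1.16 ± 0.19) while its other entry changed by -0.06 ± 0.18 and -0.20 ± 0.06.

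Of the 5 membrane partners, 2 were called foveal-high and 3 peripheral-high in retina (median -0.74), and 1 and 1 in RPE/choroid (median -0.26), with 67% and 44.1% of all genes called. The syndecans, heparan sulphate carriers that can hold HBEGF at the surface, changed in opposite directions in the tissues. SDC3 had 82.7 ± 3.89 CPM in foveal and 300.5 ± 47.3 in peripheral retina (-1.79 ± 0.13, edgeR adjusted p = 3.22e-07), and was higher at the fovea/macula in RPE/choroid (0.42 ± 0.09, edgeR adjusted p = 0.00285). SDC1 was higher in foveal retina (0.92 ± 0.16, edgeR adjusted p = 2.78e-04) and in peripheral RPE/choroid (-1.32 ± 0.25, edgeR adjusted p = 0.00167). CD44, the hyaluronan receptor, was higher in foveal retina (1.24 ± 0.30, edgeR adjusted p = 0.00322), and MUC1, at under 1 CPM, in peripheral retina (-0.93 ± 0.28, edgeR adjusted p = 0.0108), a call lost without either RM04 eye (edgeR adjusted p of 0.0707 and 0.0791). Without the 4 libraries high in Schwann cell markers, the RPE/choroid calls of EREG, RHBDL2 and SDC3 were lost (edgeR adjusted p = 0.0728, 0.0822 and 0.0831).

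The genes whose levels followed each member most closely are given as a description, over 16 libraries of a tissue that share location, flow cell and animal. In retina these were HERPUD1, MYF6 and MEIS3 for EGF (Pearson's r of 0.972 to 0.968), SPIDR, NDUFAF7 and RTBDN for HBEGF (0.979 to 0.972), CDADC1, SNRPC and SDHAF4 for NRG1 (0.944 to 0.921), and CDH10, NDST4 and MYO5A for NRG3 (0.994 to 0.990). For the receptors they were TLN1, CTDSP1 and SFRP2 for ERBB2 (0.980 to 0.979) and AGAP2, BARHL2 and CNTNAP4 for ERBB4 (0.961 to 0.955). The genes that changed least with location had looser partners, with C4H6orf62, RNF11 and BTBD3 for BTC (0.862 to 0.794) and RECK, QKI and KIAA1217 for EGFR (0.845 to 0.762). In RPE/choroid the closest genes were ZDHHC24, DES and INPP5A for HBEGF (0.924 to 0.915), GBE1, GPAM and SLC19A2 for BTC (0.955 to 0.950), and EYA2, TMOD1 and ASB14 for NRG3 (0.886 to 0.850). For the receptors in that tissue they were PKNOX2, STOX2 and NHSL2 for EGFR (0.973 to 0.947), NRM, ANTXR2 and FMNL2 for ERBB2 (0.899 to 0.856), PDXK, PPIB and RANGAP1 for ERBB3 (0.962 to 0.947), and GATM, RAP1GDS1 and MCTP2 for ERBB4 (0.926 to 0.916). EGF and NRG1 were too low in RPE/choroid for this comparison.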

How the data were processed

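Poly-A RNA of 32 libraries was measured, 4 eyes of 2 monkeys at 4 locations in 2 tissues. Reads were assigned lane by lane by the authors to Mmul_8.0.1 transcripts with Salmon (version 0.13 in the submitters' processing notes), and they deposited, per gene and lane, estimated counts scaled by transcript length with tximport, in a column headed TPM. Here the 136 lanes were summed per library and rounded, 10 entries that repeat an identifier were dropped, and 19422 entries were kept. The columns of other samples numbered 0. Precision is limited by the 4 eyes, which share 2 animals.

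Groups came from the source names in the labels. The main test was the edgeR 4.0.16 quasi-likelihood test (R 4.3.3) with TMM factors, filterByExpr with a minimum count of 10, the monkey as covariate and p-values adjusted by Benjamini-Hochberg across every tested gene, called at 0.05. Comparisons of fovea/macula, perimacula and periphery came from fits of these 3 locations and those with the nasal region from fits of all 4. Tissue comparisons and the differences between tissues came from fits of both tissues. The standard error is the absolute log2 fold change divided by the square root of F. The fits were also run on simulated counts drawn without any effect of animal or eye. That run therefore does not cover the sharing of animals between eyes. Levels are TMM-scaled CPM, and levels of different genes were not compared.

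Libraries with the same number come from the same eye. Over the 1000 most variable genes the deviations of same-eye libraries correlated with a mean r of 0.561 in retina (lowest 0.171) and 0.387 in RPE/choroid (lowest 0.177), beside 0.555 and 0.403 for fellow eyes.

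The 9 genes, the pathway and marker lists and the pairs were chosen with earlier results of these data known. All 9 genes are named in every comparison. From each pathway list and tissue, the called genes most strongly higher at the fovea/macula and most strongly higher at the periphery are named, at most 2 of each. A gene that this rule selects is not reported here. For likeness, the 3 genes with the highest Pearson correlation of log2 CPM (prior count 2) among those with a mean of at least 1 are named. SHC3, MC1R, KIT and NCMAP are not analysed here. Alternatives were DESeq2 1.42.0, RLE normalization, other filters, no covariate, a replicate block, other sets of libraries, 2 lanes per library and leaving out each eye. Library totals without TMM factors and leaving out the 4 RPE/choroid libraries high in Schwann cell markers were chosen after seeing the data. The latter leaves peripheral RPE/choroid with the RM04 eyes alone. Python 3.11.15, pandas 2.3.3 and matplotlib 3.10.9 were used for tables and figures.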

Additional observations from a re-analysis of the deposited data

Results flagged for a closer look

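Of 80 groups of 4 eyes that were examined for a single eye far from the others, 2 held one, at a test level that chance alone passes in about 5% of groups. EGF in perimacular retina had 9.88 CPM in the RM04 left eye, against 5.64 to 5.85 in the other 3. The same library had the highest NRG3 level (23.7 CPM) and the highest ganglion cell and cone marker sums (4819 and 2538 CPM) of its group. The part of these cell types in the EGF value was not tested. ERBB4 in peripheral RPE/choroid had 11.9 CPM in the RM03 left eye, against 2.29 to 3.92 in the others, in the library with the highest Schwann cell marker sum of all (19104 CPM).

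Location changes that differed between the tissues by the edgeR test of the difference are listed here as the retinal log2 change minus that in RPE/choroid. For the fovea/macula over the periphery, EGF differed by 3.94, HBEGF by -2.17, NRG3 by 1.09, the uncertain further NRG3 entry by 2.06, EGFR by -1.11, ERBB2 by -1.91, ERBB3 by -0.91 and ERBB4 by 2.38. For the fovea/macula over the nasal region, EGF differed by 2.04, HBEGF by -1.06, NRG3 by 0.92, ERBB2 by -1.79 and ERBB3 by -0.34. The second set rests on libraries that share flow cells.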

How the results depend on the processing

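Among the counts of called genes, that for RPE/choroid between fovea/macula and nasal region was 0 in the main test, where 57 of all 15789 genes were called. It moved to 2 with DESeq2 (EGF and HBEGF), with 490 of 15789 called. With at least 10 counts in every library it was 1 (EGF), with 78 of 13843 called. With the compared locations alone it was 1 (HBEGF), with 346 of 15115 called. For the counts that follow, the share of all genes called under the same setting is not given. The count of tissue differences for the nasal region moved from 5 to between 3 and 4 when 1 eye was left out, and that of retina over the nasal region from 6 to between 4 and 5. Without the 4 libraries high in Schwann cell markers, the count for RPE/choroid over the periphery went from 4 to 3, and the counts between tissues from 8 to 9 at the fovea/macula, 6 to 7 at the periphery and 7 to 8 at the nasal region. The replicate block of the eye in place of the monkey left 7 genes called in retina and 4 in RPE/choroid between fovea/macula and periphery, and changed no other call of the 9 genes. Over the 9 genes, 1084 of the values under the other alternatives kept direction and call, 17 gained and 9 lost a call, and 12 changed sign. With 1 eye left out, 396 kept both, 2 gained and 16 lost a call, and 18 changed sign. The cause was not tested in any of these cases.

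Changes of sign concerned values that were not called in the main test. NRG1 in retina over the nasal region gave 0.0089 with the stricter filter and 0.010 with 2 lanes, and HBEGF in RPE/choroid over the perimacula gave -0.0083 with 2 lanes. Without TMM factors, which took the median log2 fold change of all genes from 0.0054 to 0.177 for the tissue difference at the nasal region, its largest shift, EGFR in retina over the periphery gave -0.014, ERBB2 in RPE/choroid over the periphery -0.081 and NRG3 in RPE/choroid over the perimacula -0.079. Without the 4 libraries high in Schwann cell markers, NRG3 in RPE/choroid gave -0.36 over the periphery and -0.16 over the perimacula, ERBB4 in RPE/choroid over the perimacula 0.10, and the tissue differences were 0.36 for ERBB4 at the perimacula, and -0.064 for NRG3 and -0.34 for EGFR at the periphery, of which EGFR passed. With 1 eye left out, the ranges that crossed 0 were -0.17 to 0.035 for BTC in RPE/choroid over the nasal region, -0.45 to 0.14 for BTC and -0.015 to 0.087 for EGFR in retina over the periphery, and -0.16 to 0.037 for NRG1 in retina over the nasal region. In RPE/choroid they were -0.032 to 0.14 for ERBB2 and -0.21 to 0.46 for NRG3 over the periphery, -0.41 to 0.67 for NRG1 and -0.078 to 0.068 for NRG3 over the perimacula, and -0.27 to 0.0098 for NRG3 over the nasal region. For the tissue differences they were -0.49 to 0.17 for EGF and -0.079 to 0.33 for EGFR at the periphery, -0.046 to 0.16 for ERBB4 at the nasal region and -0.32 to 0.14 at the perimacula, and -0.077 to 1.30 for the NRG1 difference between tissues. Depth limits NRG1, the further NRG3 entry and EGF in RPE/choroid, at 6, 8 and 13 counts in their lowest libraries.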
